A study of Homo sapiens with 6 samples.

Results

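The genes described here are those detected in T47D cells that received a scrambled control siRNA, the control state of this luminal breast cancer line. A probe was a member when its detection p-value, which sets its signal against the array's negative controls, was below 0.01 on all 3 scramble arrays. Of the 47322 probes on the array, 15561 (32.9%) were members. They covered 9814 of the 20046 genes for which the array has a named probe, which is 49.0% of them. On single arrays 10367, 10619 and 10453 genes had a probe below the threshold. Over all 6 arrays of the series, 11784 genes had a probe below it on at least 1 array.

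The study measured total RNA with 1-colour Illumina BeadChips in T47D cells, a line from a human breast cancer that grows in RPMI 1640 medium with fetal bovine serum. Cells had been transfected 72 h earlier with a miR-489 mimic (3 arrays) or with scramble control siRNA (3 arrays). Only the scramble arrays are used here, so no value below is a response to the mimic. The scramble cells were themselves transfected, T47D is a single established line, and the labels do not say whether the 3 arrays came from separate cultures, so the spread between them may be technical.

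Luminal cells line the ducts of the breast and are held in that state by a small set of DNA-binding factors, among them FOXA1, which opens chromatin, GATA3, and the oestrogen receptor, a hormone-activated factor encoded by ESR1. Oestrogen receptor bound to hormone turns on genes such as PGR, GREB1 and TFF1, while simple epithelial keratins form the cell's intermediate filaments. In the basal layer of the breast other keratins and contractile proteins take their place.

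Gene levels are given as the deposited intensity on arrays 1, 2 and 3, on the authors' linear scale without normalization, and as a rank among the 9814 detected genes, where 1 is the brightest. A gene took the value of its brightest member probe. Brightness also depends on the probe's sequence and position, so ranks order signals and not numbers of transcripts. Where a spread is given, it is the SD of log2 intensity over the 3 arrays after background correction and quantile normalization. Because there is 1 group of 3 arrays, no value here has a test.

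The 3 scramble arrays were alike in signal. Mean intensity per array was 526 to 571, and 16910 to 17346 probes were detected on each. Normalized log2 values correlated across member probes at r = 0.983 between arrays 1 and 2, 0.987 between arrays 1 and 3, and 0.990 between arrays 2 and 3, where probes share the arrays and are not independent replicates. No pair of arrays held identical intensities. The threshold fell on a continuum. The 76 probes just inside it, whose highest detection p was 0.00909, had mean intensities of 138 to 170 with a median of 145. The 91 probes just outside it, whose highest p was 0.0104, had mean intensities of 138 to 180 with a median of 145.

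The label of a luminal line with the oestrogen receptor was checked against 5 markers. All 5 were detected on every array (49.0% of all named genes were), at very different ranks. KRT8, a simple epithelial keratin, had intensities of 10839, 8279 and 7066 and lay at rank 222. FOXA1 had 6943, 6626 and 6742 (rank 320, log2 SD 0.07, n = 3), and its arrays hardly differed. ESR1 had 3904, 3443 and 3615 (rank 705, log2 SD 0.02, n = 3), which placed the oestrogen receptor among the brightest 7.18% of detected genes. GATA3 had 1477, 1952 and 2112 (rank 1517, log2 SD 0.36, n = 3), with array 1 below the others. KRT18, the filament partner of KRT8, had 867, 430 and 529 (rank 4243, log2 SD 0.56, n = 3), far below KRT8 and lowest on array 2. KRT18 was read from 1 member probe of 2, and its other probe was detected on array 3 alone.

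**Figure D1:**
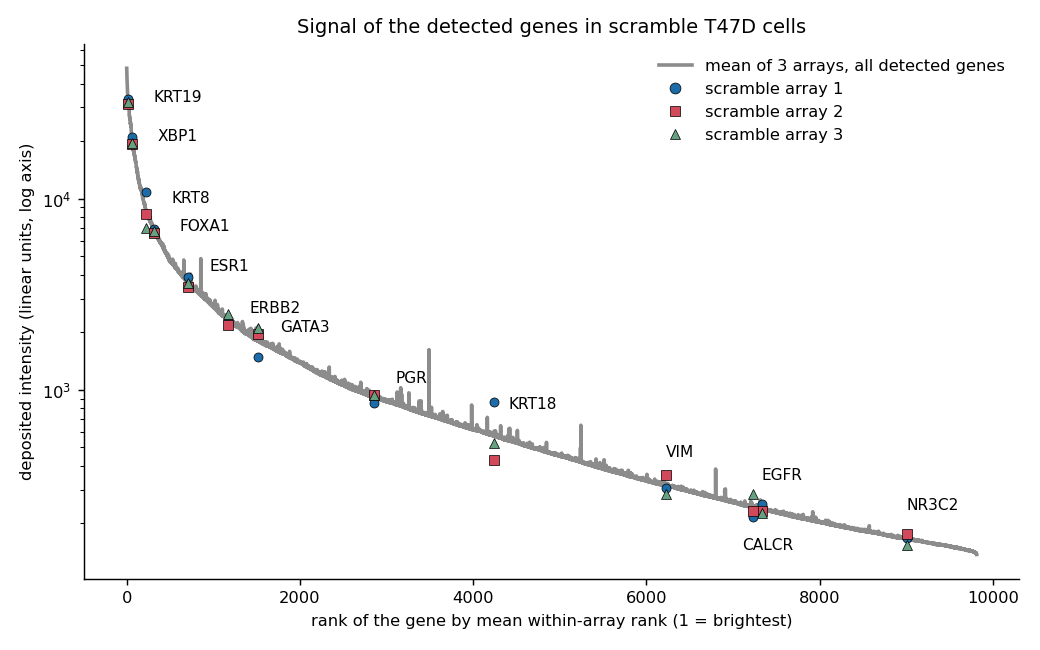
Deposited intensity (linear units on a log axis) against rank for the 9814 detected genes. The grey line is the mean of 3 scramble arrays and the coloured markers are the values of each array for named genes. ESR1, FOXA1 and KRT8 lie on the steep left part of the curve, while KRT18 (rank 4243), EGFR (rank 7330) and CALCR (rank 7231) lie on its long tail.

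Genes of protein synthesis were frequent among the brightest. Of the 30 named genes with the lowest mean rank, 11 encode cytosolic ribosomal proteins and 2 encode translation factors. RPL41, a protein of the large ribosomal subunit, had intensities of 49021, 41913 and 44735 (rank 2). EEF1A1, which brings aminoacyl-tRNA to the ribosome, had 38956, 37374 and 39770 (rank 8), and TPT1, the translationally controlled tumour protein, had 33775, 30973 and 33569 (rank 17). KRT19, a simple epithelial keratin, was the one keratin of the 30, with 33274, 31339 and 31989 (rank 20). ACTB, cytoplasmic actin, had 29308, 28353 and 28949 (rank 29). MGP, the matrix Gla protein that inhibits calcification, had 41439, 41456 and 39198 (rank 7). RN7SL1, the RNA of the signal recognition particle, had 30766, 29988 and 30314 (rank 25). These genes lay close together on all 3 arrays: the 30 had a median log2 SD of 0.050 and a largest of 0.117.

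Of 69 cytosolic ribosomal protein genes with a named probe, 68 were detected (49.0% of all named genes were), with a median rank of 88.5. They made up 39 of the brightest 100 genes and 55 of the brightest 500. RPS27 had 37529, 32618 and 32552, RPLP2 had 32336, 33335 and 29971, and RPL35A had 35355, 28354 and 29790. All 39 initiation and elongation factor genes of the list were detected, with a median rank of 820. EEF2, which moves the ribosome along the mRNA, had 14646, 14776 and 15025 (rank 112). EIF3E, a subunit of initiation factor 3, had 15000, 12096 and 13274 (rank 127).

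Mammalian mRNAs for the translation machinery usually start with a cytosine followed by a run of pyrimidines, through which mTOR signalling controls their translation. The starts of 4 of the brightest ribosomal protein genes are shown for that reason. Each stretch is taken from RefSeq on GRCh38.p14 and runs 5′ to 3′ on the gene's strand from 100 bases before the annotated start to 20 bases after it, with the pyrimidine run at the start in capitals. RPL41 is on the plus strand at chr12:56116533-56116652, RPS27 on the plus strand at chr1:153990662-153990781, RPLP2 on the plus strand at chr11:809867-809986, and RPL35A on the plus strand at chr3:197950090-197950209.
RPL41: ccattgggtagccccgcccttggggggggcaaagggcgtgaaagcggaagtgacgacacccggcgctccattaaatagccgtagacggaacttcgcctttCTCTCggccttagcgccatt
RPS27: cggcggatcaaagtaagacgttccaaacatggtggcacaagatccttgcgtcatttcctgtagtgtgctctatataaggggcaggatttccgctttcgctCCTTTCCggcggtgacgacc
RPLP2: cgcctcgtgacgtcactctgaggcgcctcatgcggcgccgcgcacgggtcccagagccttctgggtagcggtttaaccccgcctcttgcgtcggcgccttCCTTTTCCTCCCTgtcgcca
RPL35A: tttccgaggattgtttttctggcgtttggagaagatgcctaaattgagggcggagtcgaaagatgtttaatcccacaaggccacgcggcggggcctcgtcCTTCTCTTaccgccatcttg
The run spans 5 bases in RPL41, 7 in RPS27, 13 in RPLP2 and 8 in RPL35A. A start of C followed by at least 4 pyrimidines, read on the gene's strand, was found in 43 of 67 start windows of detected ribosomal protein genes (64.2%). These windows belong to 58 of the 68 detected genes, some with several starts, and the rest were not in the search. Such a start was found in 27.5% of windows of detected translation factor genes. The share was 4.58% over all windows, which belong to 14440 protein-coding genes. The match describes the letters at the annotated start and not translation in these cells.

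Several of the brightest genes have no obvious tie to a breast epithelial cell, and their probes did not agree. LAIR1, an inhibitory receptor of leukocytes, was the brightest named gene, with 46846, 49008 and 48431, while its other probe read 120, 124 and 123 and was not detected on any array. F2R, the thrombin receptor, had 44553, 42183 and 41881 by one probe and 117, 112 and 108 by the other. CCR6, a chemokine receptor of lymphocytes, had 27024, 26377 and 28351 by its brightest probe and 117, 113 and 106 by its dimmest. TMSB4X, which binds actin monomers and is bright in most cells, also had a pair of readings, 42614, 40737 and 40200 against 120, 109 and 123. Of the 30 genes, 24 have another named probe. In 17 of the 24 a second probe was more than 6 log2 units dimmer, and in 5 (LAIR1, F2R, TMSB4X, ITIH5 and CCR6) none of the other probes was detected on any array. MGP and RPL38 are examples of agreement: the dimmest probe of MGP had a mean log2 of 15.24, beside 15.30 for the brightest. When each gene was read from its dimmest probe, 8 of the 30 stayed among the brightest 30 and the top of the order was MGP, KRT19 and RPLP2.

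**Figure D2:**
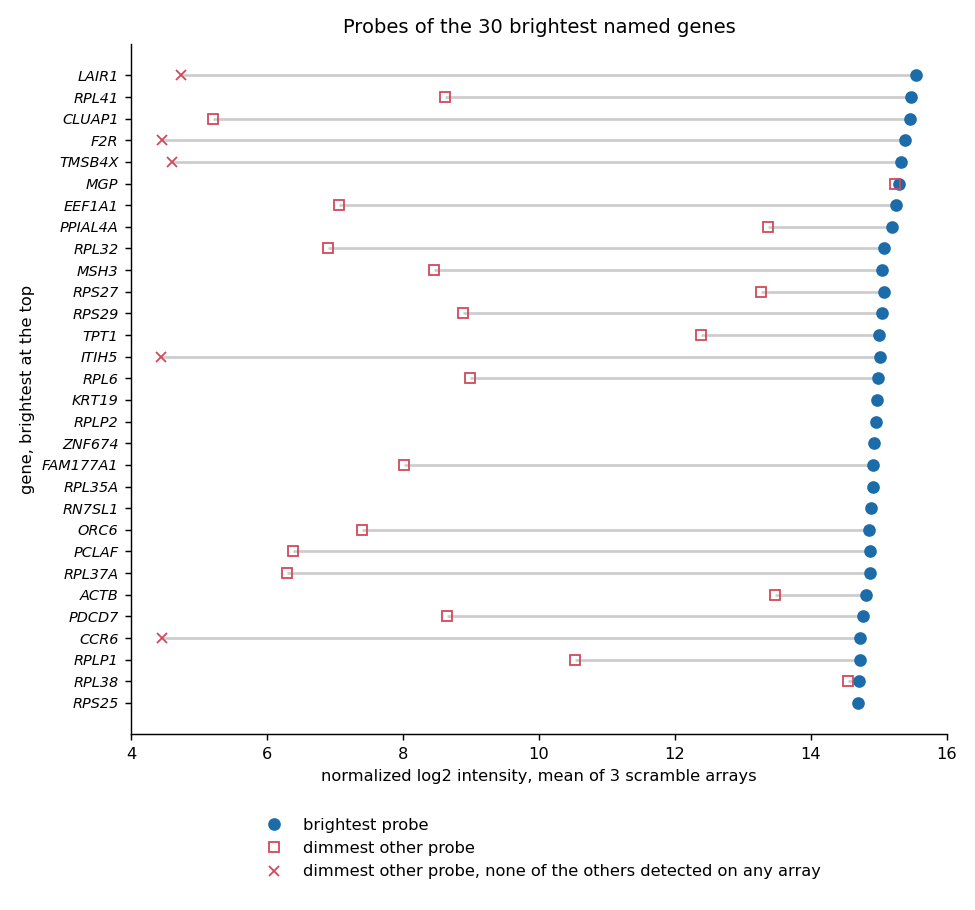
Normalized log2 intensity (mean of 3 scramble arrays) of the brightest probe and the dimmest other probe of each of the 30 brightest named genes. A cross marks genes whose other probes were not detected on any array, and genes with a single marker have 1 named probe; the brightest probes lie within about the same narrow band, while the dimmest reach down to background.

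The disagreement was general. Of 2384 genes with 2 or more member probes, the median gap between the brightest and the dimmest of them was 1.32 log2 units, and 809 (33.9%) had a gap over 2. Of the 6691 genes with more than 1 named probe, 1643 had every probe among the members, 2259 had some and 2789 had none. FARSB, a subunit of phenylalanyl-tRNA synthetase, gave 24070, 25878 and 24844 by its brightest probe and 117, 111 and 116 by its dimmest. GNAS, the stimulatory G protein alpha subunit, gave 14778, 13335 and 14408 against 110, 106 and 106. A low or absent signal of 1 probe is therefore a statement about that probe, and the lists below count a gene as detected if any of its probes was.

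Among nuclear receptors, the hormone-gated transcription factors, 17 of 40 were detected (42.5%, beside 49.0% of all named genes), with a median rank of 6437. ESR1 was the brightest. RARA, a retinoic acid receptor, followed with 3245, 2884 and 3195 (rank 869), and its highest array lay below the lowest ESR1 array. RARA was read from 1 member probe of 3, and by its dimmest probe it lay 98.1% of the way down the order. RXRA, the shared partner of many nuclear receptors, had 1523, 1860 and 1725 (rank 1637). NR2F6, an orphan receptor, had 1375, 1372 and 1187 (rank 2090). PGR, the progesterone receptor, had 852, 940 and 944 (rank 2857, log2 SD 0.15, n = 3). Down to PGR the intensities of neighbouring receptors, each by its brightest probe, did not overlap on the arrays. Below it NR1H3, the oxysterol receptor LXR alpha, with 666, 756 and 728, and ESRRA, an orphan relative of the oestrogen receptor, with 487, 730 and 587, overlapped each other.

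The lower detected receptors were close to background. VDR, the vitamin D receptor, had 263, 238 and 239 (rank 7155). NR3C2, the mineralocorticoid receptor, had 168, 176 and 155 (rank 9007). THRA, a thyroid hormone receptor, was the dimmest with 149, 141 and 142 (rank 9739). ESR2, the second oestrogen receptor, read 121, 117 and 134 and was detected on no array, as was NR3C1, the glucocorticoid receptor, with 125, 135 and 126 by the brightest of 3 probes. All 23 nuclear receptors that were not members were detected on none of the 3 arrays, and at a looser detection p below 0.05 on all 3 arrays 18 were detected. The list named 48 receptors, and those without a named probe were not analysed here.

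**Figure D3:**
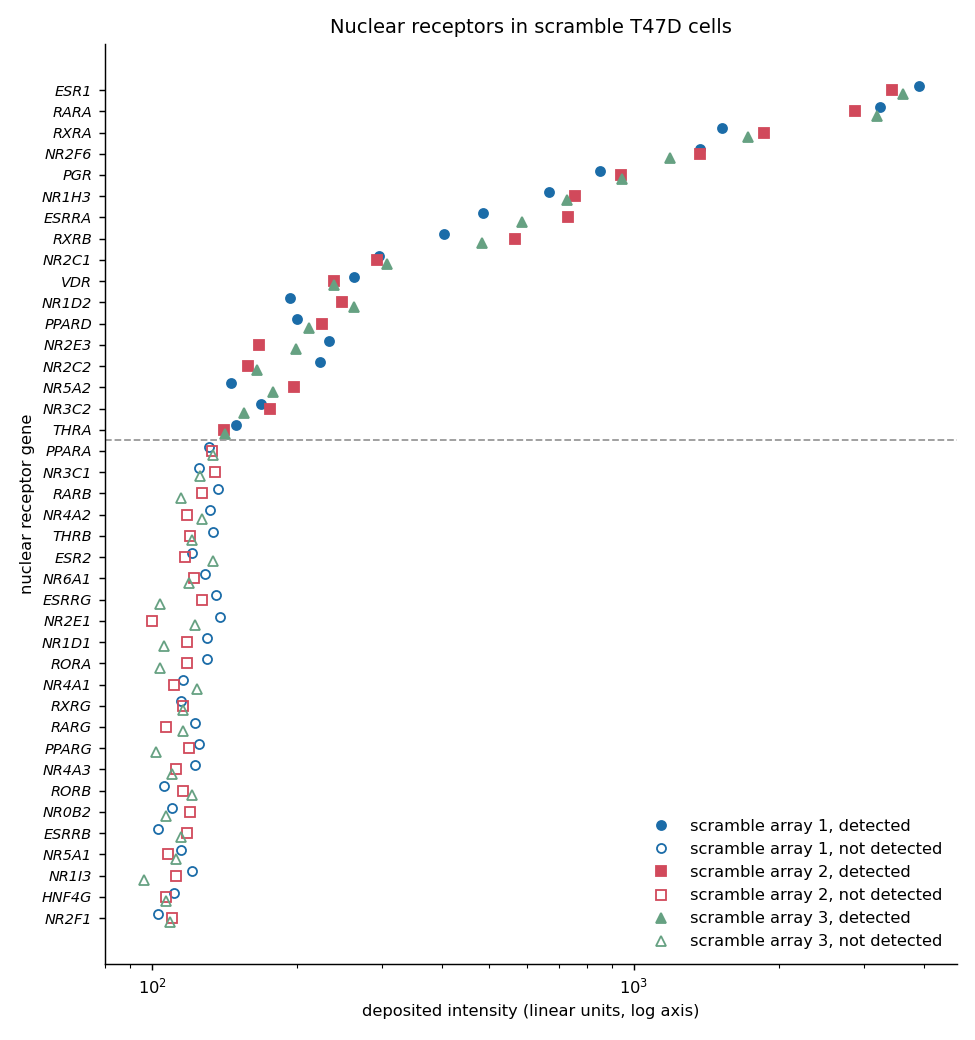
Deposited intensity (linear units on a log axis) of 40 nuclear receptors on the 3 scramble arrays. Filled markers above the dashed line are the 17 detected receptors in rank order and open markers below it are the 23 not detected, which sit at the background level; ESR1 is highest and THRA is the dimmest of the detected.

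Of the coregulators and chaperones that nuclear receptors work with, 26 of 28 were detected (92.9%, beside 49.0% of all named genes), with a median rank of 2206.5. HSP90AA1, the chaperone that holds steroid receptors ready for hormone, had 19071, 16691 and 17383 (rank 79). NCOA4, a coactivator that also carries ferritin to autophagosomes, had 6189, 6380 and 5700 (rank 380). The histone deacetylases HDAC1 and HDAC2, parts of corepressor complexes, lay at ranks 643 and 1338. NCOA2 and PPARGC1B were the members not detected.

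Of 30 transcription factors of the luminal lineage, 26 were detected (86.7%, beside 49.0% of all named genes), with a median rank of 3323. XBP1, which drives the secretory pathway and is induced by oestrogen, was the brightest with 20988, 19365 and 19557 (rank 62, log2 SD 0.03, n = 3). ELF5, a factor of alveolar progenitors, had 3106, 4177 and 4127 (rank 686), but this rests on 1 of its member probes, and by its dimmest probe its place fell to 59.5% of the way down the order. SPDEF, an ETS factor of secretory epithelium, had 3362, 2965 and 3391 (rank 818), and TFAP2C, an AP-2 factor, had 3331, 2631 and 3161 (rank 893). MYB had 1660, 1513 and 1463 (rank 1803) and MYC had 1047, 861 and 884 (rank 2821). STAT5A, which transmits prolactin signals, was near background with 140, 205 and 187 (rank 8720). TFAP2B and KLF5 were not detected on any array, and CITED1 and GRHL3 were detected on 1.

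The oestrogen response list held genes known to be induced by the hormone in breast cancer lines. All 32 with a named probe were detected (49.0% of all named genes were), with a median rank of 1501. TFF3, a trefoil peptide secreted with mucins, had 24805, 19085 and 28730 (rank 50). AGR2, a disulphide isomerase, had 14448, 13177 and 15178 (rank 116), IGFBP5 had 13204, 13841 and 17003 (rank 114), and CA12, a carbonic anhydrase, had 13780, 11457 and 9568 (rank 154). STC2, a secreted glycoprotein, had 9710, 13010 and 11285 (rank 170). TFF1, often used as a readout of receptor activity, spread widely, with 1590, 445 and 859 (rank 3259, log2 SD 0.99, n = 3). Its lowest value was on array 2. The lists were chosen with earlier results of these data known, so the full detection of this one is a description.

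Of 55 receptor tyrosine kinases 21 were detected (38.2%, beside 49.0% of all named genes), with a median rank of 6716, and 27 were detected on at least 1 array. DDR1, a collagen receptor of epithelia, was the brightest with 3089, 4603 and 3971 (rank 678). ERBB2, the receptor also called HER2, had 2298, 2182 and 2495 (rank 1170), and ERBB3, its partner, had 1728, 2080 and 2048 (rank 1402). EGFR had 252, 233 and 226 (rank 7330), MET, the receptor of hepatocyte growth factor, had 261, 267 and 303 (rank 6716), and IGF1R had 253, 216 and 200 (rank 7608). ERBB4 read 108, 103 and 104 and was not detected, nor were KIT, FGFR1, FGFR2 and the PDGF receptors PDGFRA and PDGFRB on any array. INSR, the insulin receptor, was a borderline case with 154, 117 and 138, detected on 2 of 3 arrays. The order depends on the probe. ERBB2, with 1 member probe of 3, lay 11.9% of the way down the order by its brightest probe and 93.5% by its dimmest. ERBB3, all 3 of whose probes were members, lay at 14.3% by the brightest, 43.7% by the mean and 66.2% by the dimmest.

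Among cytokine and hormone receptors 25 of 38 were detected (65.8%, beside 49.0% of all named genes). PRLR, the prolactin receptor, had 4530, 4467 and 3234 (rank 627), and IL6ST, the signalling chain shared by interleukin 6 family receptors, had 3906, 3406 and 3994 (rank 681). These values overlap, and on array 3 IL6ST was the brighter, so the order of the pair is not settled. By its dimmest probe PRLR lay 21.6% of the way down the order, beside 6.39% by its brightest. IL6R, the binding chain for interleukin 6, read 118, 104 and 118 and was not detected, nor was LIFR. IFNGR2 had 2743, 3696 and 3306 (rank 821). GHR, the growth hormone receptor, had 1365, 1313 and 1121 (rank 2156). CALCR, the calcitonin receptor gene, whose intron holds the miR-489 precursor, was detected at 215, 233 and 286 (rank 7231). TGFBR2 read 143, 119 and 117 and was detected on 1 array.

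Keratins split by kind. Of 7 simple epithelial keratins 6 were detected (85.7%, beside 49.0% of all named genes): KRT19, KRT8, KRT80, KRT7, KRT23 and KRT18. Of 13 stratified epithelial keratins 3 were detected (23.1%). KRT10 had 2436, 2119 and 2124 (rank 1216), while KRT15, with 281, 263 and 297, and KRT13, with 288, 274 and 202, were dim. KRT5 read 120, 102 and 105 and KRT14 read 106, 109 and 110, and neither was detected. Epithelial adhesion genes were present, with 25 of 28 detected (89.3%) and a median rank of 1745. MUC1, a transmembrane mucin, had 13333, 11977 and 14099 (rank 132) by the brightest of 3 member probes, CLDN1, a tight junction claudin, had 13036, 8713 and 12290 (rank 167), and EPCAM had 5163, 4535 and 5842 (rank 462). CDH1, E-cadherin, had 3723, 4416 and 4287 (rank 605).

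Of 21 products of secretory breast epithelium 8 were detected (38.1%, beside 49.0% of all named genes). PIP, the prolactin-induced protein of apocrine cells, had 4032, 5280 and 3618 (rank 591). APOD, a lipid carrier, had 2280, 6058 and 5989 (rank 660, log2 SD 0.92, n = 3), with array 1 apart from the others. AZGP1 had 442, 413 and 335 (rank 5431) and MUCL1 had 193, 168 and 190 (rank 8470). The milk proteins CSN1S1, CSN2, CSN3 and LALBA were detected on no array, and SCGB2A2, mammaglobin, read 122, 147 and 123 and was detected on 1.

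Lists of energy metabolism and growth differed in level, and their detected shares were all above the 49.0% of all named genes. Of 31 ATP synthase and cytochrome c oxidase subunits 26 were detected, with a median rank of 257.5, led by ATP5F1B, the catalytic beta subunit, with 28722, 26611 and 24557 (rank 37). The 5 not detected, COX6B2, COX6A2, COX4I2, COX8C and COX7A1, are forms known from testis, muscle or lung. Of 26 glycolysis genes 19 were detected, with a median rank of 1285. LDHA had 12093, 9887 and 9868 (rank 177), and LDHB, the other lactate dehydrogenase subunit, was not detected. Of 45 cell cycle regulators 39 were detected, with a median rank of 3613. MCM3, a subunit of the replicative helicase, had 6028, 4115 and 4278 (rank 502), TOP2A had 5103, 4259 and 4411 (rank 523), and CCND1, cyclin D1, had 4203, 3769 and 4552 (rank 594). CCND2 and CCNE2 were not detected. After normalization 28 of the 39 were highest on array 1, beside 37.2% of all detected genes.

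Of 28 immediate early and stress genes 22 were detected (78.6%, beside 49.0% of all named genes), with a median rank of 2946.5. JUND, a subunit of AP-1, had 7657, 6154 and 5958 (rank 339), and IER3 had 3679, 5054 and 5075 (rank 553). The heat shock genes HSPA1B, with 4181, 3565 and 2308, and HSPA1A, with 2759, 2017 and 1355, were highest on array 1 and lowest on array 3. Their coding sequences are nearly identical, so the probes may share signal. FOS, FOSB and EGR3, which serum induces within minutes, were detected on no array, and JUNB was detected on 2.

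Of the machinery that processes and uses small RNAs 17 of 24 genes were detected (70.8%, beside 49.0% of all named genes), with a median rank of 3840. CNOT1, the scaffold of the deadenylase complex, had 2073, 2080 and 1710 (rank 1404). DROSHA, which cuts microRNA precursors in the nucleus, had 1364, 1246 and 1282 (rank 2103), and DICER1, which cuts them in the cytoplasm, had 881, 607 and 674 (rank 3590). PIWIL1, PIWIL2 and PIWIL4, Argonaute relatives of the germ line, were not detected. The array holds probes named for 552 microRNA precursor genes, and 14 of them were detected.

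Other lineages were mostly dark, with detected shares below the 49.0% of all named genes. Of 13 endothelial markers 1 was detected, ENG with 170, 193 and 195, and without array 1 the count was 2, with ESAM (135, 150 and 155). The defining genes PECAM1, CDH5, VWF and TEK were detected on no array. Of 22 leukocyte markers 7 were detected on at least 1 array and 3 on all of them: CD68, a lysosomal protein, with 638, 637 and 587 (rank 3992), CD14 with 262, 309 and 255, and AIF1 with 151, 152 and 161. The defining leukocyte genes PTPRC, CD3D and SPI1 were at background, PTPRC reading 110, 126 and 105. Of 24 mesenchymal and fibroblast markers 4 were detected. S100A4, a calcium-binding protein, had 2084, 1207 and 2318 (rank 1563), VIM, vimentin, had 306, 359 and 284 (rank 6230), COL1A1 had 256, 246 and 333 (rank 6728), and TWIST1 had 205, 289 and 304 (rank 6964). COL1A2, DCN and LUM were not detected on any array, nor were ZEB1, ZEB2 and SNAI1, repressors of E-cadherin.

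Of 17 basal and myoepithelial markers 9 were detected (52.9%, close to the 49.0% of all named genes). None was among the brightest genes: CDH3, P-cadherin, had 551, 927 and 664 (rank 3636), ACTA2, smooth muscle actin, had 378, 1630 and 492 (rank 3983), and ITGB4, an integrin of hemidesmosomes, had 617, 502 and 528 (rank 4383). The detected members had a median rank of 6944, and most of them are not named here. KRT5, KRT14 and SOX10 were among the 6 detected on no array, and 2 others were detected on some arrays but not all. TP63 and KRT17, also chosen as basal markers, are not described here, so the named genes do not stand for the whole list. ACTA2 was 1 of the genes that differed most between the replicates, and its value on array 2 stood apart.

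For tissues other than the breast the detected markers were few and dim, and each list lay below the 49.0% of all named genes. None of 15 gut and pancreas markers was a member, and 1, MUC2, was detected on 1 array. Of 14 muscle markers 2 were detected, MB, myoglobin, with 436, 467 and 471 (rank 4931) and TNNI3 with 286, 335 and 338. Of 13 hepatocyte markers 1 was detected, ALB with 232, 185 and 229. Of 14 lung, kidney and prostate markers 1 was detected, TMPRSS2 with 264, 448 and 423. Of 17 neuronal and neuroendocrine markers 3 were detected, led by TUBB3 with 343, 359 and 321. Of 12 glial and melanocyte markers 2 were detected, TYRP1 with 315, 352 and 310 and PMEL with 147, 163 and 152. Of 10 erythroid and platelet markers 2 were detected, HBA2 with 215, 176 and 217 and PPBP with 172, 136 and 157. Of 9 adipocyte markers 1 was detected, LEP, the gene of leptin, with 583, 541 and 522 (rank 4369). The brightest single gene of these lists was LIN28A, an RNA-binding protein of pluripotent cells that blocks let-7 maturation, with 1429, 1023 and 1140 (rank 2275) from its only probe. NANOG and SOX2 were detected on no array.

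**Figure D4:**
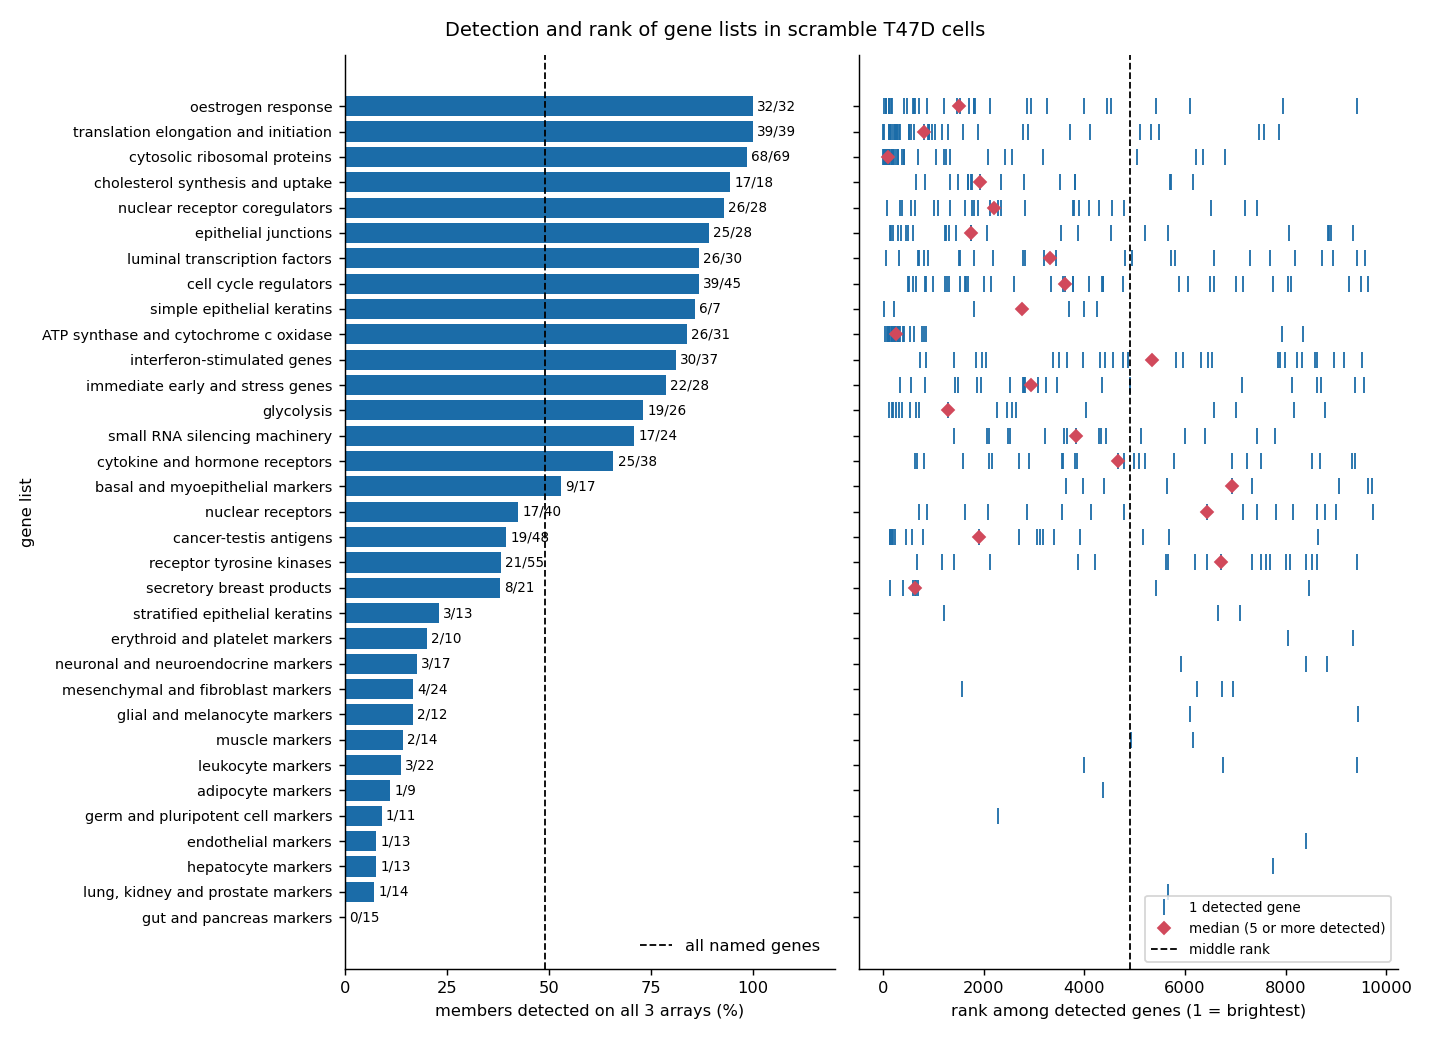
Share of named members detected on all 3 scramble arrays (left, bars from 0, with detected and named counts beside each bar) and ranks of the detected members (right, 1 is the brightest) for 33 gene lists. Translation, energy, junction and oestrogen response lists lie above the 49.0% of all named genes (dashed line), and markers of other tissues lie below it.

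Detected and not detected genes differed in their promoters. In RefSeq windows of GRCh38.p14 from 250 bases before to 50 after each start of a protein-coding gene, the median ratio of observed to expected CpG pairs was 0.824 in 11546 windows of 7963 detected genes and 0.497 in 8878 windows of 6477 genes not detected. Median GC content was 65.0% in windows of detected genes and 58.5% in those of genes not detected. When genes were ranked by the CpG ratio and cut into equal groups, 76.4% of genes in the highest group, 69.9% and 55.7% in the next groups down, and 18.6% in the lowest group were detected. Genes are not replicates, so these shares have no test.

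Motifs were searched on both strands of the same windows. The ETS core CCGGAAG was in 18.0% of detected and 6.54% of not detected windows (13% of all). The GC box GGGCGG was in 66.9% of detected and 44.4% of not detected windows (57.1% of all). The TATA core TATAAA was in 6.01% of detected and 13.6% of not detected windows (9.29% of all), and between 40 and 20 bases before the start, on the gene's strand, it was in 1.47% of detected and 4.93% of not detected windows. CCAAT differed little, at 35.8% of detected and 33.7% of not detected windows (34.9% of all). The cAMP response element TGACGTCA was in 2.95% of detected and 1.59% of not detected windows (2.36% of all), and the full palindromic NRF1 motif in 2.08% of detected and 0.867% of not detected windows (1.55% of all). The YY1 motif was in 1.86% of detected and 0.417% of not detected windows (1.23% of all). The full palindromic oestrogen response element was in 2 detected and 4 not detected windows (0.029% of all). It was in none of 34 windows of the detected oestrogen response genes. At so low a share that count could hardly have been otherwise, so it cannot tell those promoters from others.

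Single promoters show what these features look like and how much they vary. Below, 3 detected luminal genes have their CpG pairs in capitals. After them, 3 markers of other tissues, detected on no scramble array and picked from 15 such markers with a TATA core in that position, have the core in capitals. Each runs 5′ to 3′ on the gene's strand from 100 bases before to 20 after the RefSeq start on GRCh38.p14. FOXA1 is on the minus strand at chr14:37595230-37595349, XBP1 on the minus strand at chr22:28800550-28800669 and KRT8 on the minus strand at chr12:52926450-52926569. ACTA1, skeletal muscle actin, is on the minus strand at chr1:229434075-229434194, PNLIP, pancreatic lipase, on the plus strand at chr10:116545831-116545950, and GCG, the gene of glucagon, on the minus strand at chr2:162152228-162152347.
FOXA1: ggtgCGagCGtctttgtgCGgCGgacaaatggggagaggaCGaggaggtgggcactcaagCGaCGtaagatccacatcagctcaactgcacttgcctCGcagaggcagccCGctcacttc
XBP1: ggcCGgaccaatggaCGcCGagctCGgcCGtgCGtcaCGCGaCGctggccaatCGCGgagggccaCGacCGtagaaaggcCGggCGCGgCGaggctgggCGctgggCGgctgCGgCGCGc
KRT8: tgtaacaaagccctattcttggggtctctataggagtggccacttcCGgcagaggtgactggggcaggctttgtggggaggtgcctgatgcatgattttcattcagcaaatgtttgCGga
ACTA1: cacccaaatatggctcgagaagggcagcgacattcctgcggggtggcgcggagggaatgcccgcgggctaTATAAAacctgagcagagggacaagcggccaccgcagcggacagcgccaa
PNLIP: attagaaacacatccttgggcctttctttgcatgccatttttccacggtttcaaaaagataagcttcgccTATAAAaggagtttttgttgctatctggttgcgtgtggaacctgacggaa
GCG: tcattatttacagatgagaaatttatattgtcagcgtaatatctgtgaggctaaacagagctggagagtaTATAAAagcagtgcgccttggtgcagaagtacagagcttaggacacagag
XBP1 has 22 CpG pairs in the stretch, FOXA1 has 9 and KRT8 has 2, while ACTA1 has 11, PNLIP has 4 and GCG has 2. Single stretches thus overlap in this measure: that of ACTA1, not detected, has more pairs than those of FOXA1 and KRT8. The intensities of the silent genes were 130, 109 and 120 for ACTA1, 116, 108 and 109 for PNLIP, and 116, 109 and 126 for GCG.

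The spread between the 3 scramble arrays was small for most genes. The median log2 SD of the 9814 genes was 0.166, with 10% of genes below 0.060 and 10% above 0.359. It grew as genes became dimmer, with a median of 0.122 in the brightest of 4 equal groups of genes, 0.156 and 0.183 in the next, and 0.217 in the dimmest. The steadiest genes brighter than the median were PSMD6, a subunit of the proteasome's regulatory particle, with 4647, 4129 and 4168, PLPBP with 1251, 1151 and 1165, and HDAC2 with 2158, 1953 and 1983. After normalization each had a log2 SD under 0.01. These are the smallest values among 4813 genes compared.

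A range over 1 log2 unit was found in 251 genes (2.56%). Of these, 138 were highest on array 2, beside 34.7% of all detected genes, and 44 were lowest on it, beside 31.0% of all detected genes. Among the genes brighter than the median, IFI27, an interferon-induced mitochondrial protein, spread most, with 407, 3935 and 524 (log2 SD 2.03, n = 3). ACTA2 followed with 378, 1630 and 492 (log2 SD 1.34), then IFI6, another interferon-induced protein, with 2254, 9880 and 2435 (log2 SD 1.30). IFITM1, a membrane protein that restricts virus entry, had 334, 1089 and 525, OAS2, a sensor of double-stranded RNA, had 329, 1046 and 501, and S100A9, a subunit of calprotectin, had 312, 1058 and 519. In all of these array 2 was high. GPNMB, a glycoprotein of lysosomes and melanosomes, was high on array 1 alone, with 1841, 642 and 595.

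The interferon-stimulated genes as a list, which holds IFI27, IFI6, IFITM1 and OAS2, showed the same order of arrays. The list was chosen with earlier results of these data known, so its order is a description and not separate support. Of its 37 genes with a named probe 30 were detected (81.1%, beside 49.0% of all named genes), with a median rank of 5346. After normalization 26 of the 30 were highest on array 2, beside 34.7% of all detected genes. In 23 array 2 was highest and array 1 lowest, beside 21.2% of all detected genes. Relative to each gene's mean of 3 arrays, the list's median was -0.41 log2 on array 1, 0.46 on array 2 and -0.12 on array 3, and its median SD was 0.447. MX1, a dynamin-like antiviral GTPase, was the brightest with 2568, 6283 and 3259 (rank 737). BST2, tetherin, had 1575, 2883 and 1766, and IFIT1, which binds viral RNA ends, had 1210, 2033 and 1428. RSAD2, IFI16 and TRIM22 were not detected on any array. Without array 2, arrays 1 and 3 differed by a median of 0.307 log2 over the 30 genes, against 0.198 over all detected genes.

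Genes of cholesterol synthesis, a list added after the array order had been seen, showed the opposite order. Of 18 with a named probe 17 were detected (94.4%, beside 49.0% of all named genes), with a median rank of 1921. After normalization 15 of the 17 were lowest on array 2, beside 31.0% of all detected genes, and in 14 array 2 was lowest and array 1 highest, beside 19.4% of all. The list's median was 0.43 log2 on array 1, -0.38 on array 2 and -0.04 on array 3. SQLE, squalene epoxidase, had 3142, 1133 and 2041, HMGCS1, which makes the precursor of mevalonate, had 3364, 1441 and 2028, IDI1 had 2395, 1174 and 1683, and MSMO1 had 2629, 1081 and 1508. TM7SF2, a sterol reductase, with 1547, 1767 and 1668, was lowest on array 1, and MVD, with 408, 358 and 327, was lowest on array 3. ACAT2, with 1890, 1162 and 1863, was lowest on array 2 but highest on array 3 after normalization. Without array 2, arrays 1 and 3 still differed by a median of 0.423 log2 in these genes. The ribosomal protein genes had a median SD of 0.080 and medians within 0.011 log2 of their means on all arrays. Whether a batch, a culture or the transfection moves with array 2 was not tested, since the labels give none per array.

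**Figure D5:**
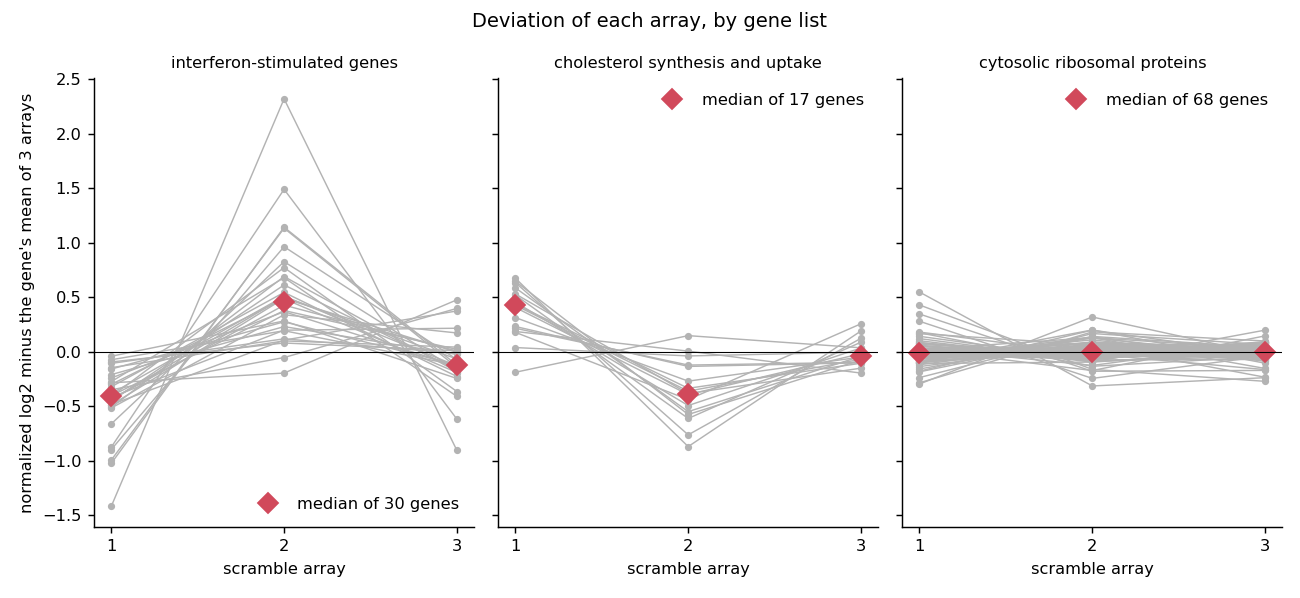
Normalized log2 intensity minus the gene's mean of 3 arrays, for each scramble array, in interferon-stimulated genes (left), cholesterol genes (middle) and ribosomal protein genes (right). Each grey line joins the values of 1 gene and the red diamonds are medians, at 0.46 on array 2 for interferon genes and -0.38 for cholesterol genes, while ribosomal protein genes stay near 0.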

How the data were processed

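For every probe and array the authors deposited a linear summary intensity, not normalized, beside a detection p-value, per the file headers; what software produced the p-values is not known from the labels or headers. A second deposited table holds processed intensity values, whose columns all have a median of 200.783; the submitters' processing notes name lumi 3.2.2, the transform is unknown, and within each scramble array this table orders the member probes exactly as the first one does (Spearman rho 1). The log2 values were computed here from the authors' intensities. They came from nec (offset 16, from detection p-values) and quantile normalization over the 3 scramble arrays in limma 3.58.1 (R 4.3.3). They served for spread, for gaps between probes, for the choice of each gene's brightest probe and for the array called highest or lowest. Detection used the deposited p-values, and ranks used the deposited intensities of the chosen probes. The number of arrays limits the precision.

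Probes were named from the platform annotation, with symbols updated by Entrez identifier in RefSeq GRCh38.p14. A single symbol was available for 30113 probes, 8 carried more than 1 and 17201 remained unnamed. A gene was read from its brightest member probe. Of 813 listed genes, 756 had a named probe; the others were not analysed here. The members and the 31 lists were chosen with earlier results of these data known, and 2 further lists (cholesterol synthesis, cancer-testis antigens) after the values were seen. Genes named are the 5 markers, the 30 brightest (no provisional or pseudogene names), the 8 brightest of each list and any member of receptor, transcription factor, keratin and marker lists, the 12 most and 12 least variable genes brighter than the median, and the 10 with the largest disagreement between probes; members of other lists named as not detected, MVD, VCX3A, PRAME and the promoter examples were chosen after their values were seen. The spread script was tested on simulated data. Promoter windows and sequences are RefSeq's; the motifs and the start windows are a search for letters, with no test.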

Additional observations from a re-analysis of the deposited data

How the results depend on the processing

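No paired analysis was possible because the results come from no test and only 1 group, the scramble arrays, is described. The counts of member probes and detected genes stayed within 1.5 times under a looser and a stricter detection p, under detection on at least 1 or 2 arrays and without each array. Detected members summed over the lists did so under the looser p, on at least 1 array and without each array; no stricter p was run for them. Short marker lists moved more: endothelial markers from 1 to 2 without array 1, leukocyte markers from 3 to 7 on at least 1 array. Of the results that answer a question of the design, 52 alternatives left the value about where it was and 15 moved it; of the single genes and lists, 321 did and 72 did not. The dimmest-probe reading, the CpG alternatives and the array-order alternatives were added after seeing the data. With the mean over a gene's member probes 15 of the 30 brightest genes stayed, and with the dimmest probe 8; the place of ESR1 went to 5.45% and 4.26% of the order, beside 7.18%, where ESR1 has 1 probe and only the genes around it moved. Genes with several probes moved much further by the dimmest: RARA lay at 98.1% (8.85% by the brightest), ERBB2 at 93.5% (11.9%), ERBB3 at 66.2% (14.3%) and MUC1 at 17.6% (1.35%). The authors' values cannot change ranks, because they order probes alike. Their rank outcomes were thus fixed, yet they are counted as left about where they were. They make up 20 places of single genes and 18 list medians among the 321. Those for the brightest genes, the levels of named genes and the gene list levels are among the 52. The median log2 SD of 0.166 was 0.117 with no background correction, 0.144 with an offset of 50 and 0.0949 in the authors' values, and 0.110 to 0.154 when an array was left out. The 62 genes brighter than the median with a range over 1 log2 unit numbered 32 in the authors' values, 41 when the background was not removed, and 18 to 49 when an array was left out. With 2 arrays a gene's range cannot grow except through the normalization, and the median SD tends to be lower. The direction of these leave-out changes was therefore set in advance, and they are counted with the other alternatives above. The difference in CpG ratio between detected and not detected genes, 0.327, was 0.380 with 1 window per gene and 0.373 when genes detected on any array were left out of the second group. Under each of the 5 other normalizations tried, 26 of 30 interferon genes were highest and 15 of 17 cholesterol genes lowest on array 2. Those that end in quantile normalization keep each array's order of probes. That order fixes which array is highest for a gene, so their counts could not differ. The authors' values keep that order too. Median scaling could have changed the counts and left them as they were. All of these are counted among the alternatives that left the value about where it was. Signals near background, with probes just inside and just outside the threshold equally bright, limit every statement that a gene is not detected.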

Other observations

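Cancer-testis antigens, genes normally limited to the germ line, were a list added after the values were seen. Of 48 with a named probe 19 were detected, beside 49.0% of all named genes, and 10 of the 19 were in the brightest of 4 equal groups of detected genes. The GAGE genes led: GAGE4 had intensities of 14683, 12845 and 11668 (rank 131) and GAGE12G had 13479, 13170 and 12086 (rank 133). GAGE copies are nearly identical, so their probes cannot tell which copy was read. The VCX genes, also near-identical copies, spread between arrays in the way of the interferon genes, VCX3A with 545, 1587 and 791 (log2 SD 0.92, n = 3). PRAME, which had 470, 956 and 592, was highest on array 2 as well. The list as a whole was mixed. After normalization 10 of the 19 were highest on array 2 (34.7% of all detected genes were) and 7 on array 1 (37.2% were). In 5 of the 19 array 2 was highest and array 1 lowest, beside 21.2% of all detected genes. MAGEA4, MAGEC1 and CTAG2 were detected on no array.

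Among kinds of gene with over 100 members named on the array, protein-coding genes had the largest share detected, 53.2% of 17777. The share was 27.1% of 528 transcribed pseudogenes, 22.9% of 279 small nucleolar RNA genes and 13.2% of 798 long noncoding RNA genes. It was lowest for the 561 genes classed as microRNA, at 2.50%. Of the small kinds, 9 of 16 small nuclear RNA genes, 4 of 4 Y RNA genes and 3 of 3 ribosomal RNA genes were detected. Probes with 1 gene symbol were members more often than the remaining probes, at 42.1% and 16.8%.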
